A study of Mus musculus with 2 samples.

Results

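The nuclear genes for mitochondrial ribosomal proteins were described in hippocampus RNA of 6-month-old mice, sequenced as long reads. The 78 genes were chosen by name: protein-coding genes of the GENCODE M21 annotation whose symbol starts with Mrpl or Mrps and a number, with reads in both libraries. The annotation holds 78 such genes, all 78 had reads in both libraries, and they stand among 18595 annotated genes with a read in either library. By name, 49 belong to the large subunit and 29 to the small subunit. The tissue, labelled a layer of the hippocampus, came from mice of the strain B6NCrl, also described as C57BL/6, called male in the description while the field for sex is marked as not collected. There was a single group of 2 libraries, replicate 1 and replicate 2, from separate biosamples under 1 donor identifier, with no treatment or mutation in either. No second condition is labelled, so each test below compares the 2 libraries with each other. Fisher's exact test, used below, sets a difference against counting error alone and measures no spread between animals or preparations. Whether the shared identifier means shared tissue is not stated.

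Mitochondria keep a ribosome of their own, which makes only the few membrane proteins encoded in the mitochondrial genome, core subunits of the respiratory chain and of ATP synthase. Its rRNAs are mitochondrial transcripts, whereas all its proteins are encoded in the nucleus, made in the cytosol and imported. The small subunit binds mRNA and reads the code, the large subunit forms the peptide bond, and mammalian mitochondrial ribosomes carry many proteins that bacterial ribosomes lack. Neurons depend on oxidative phosphorylation, and in humans variants in several of these genes cause mitochondrial disease.

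Replicate 1 had 1330153 reads and replicate 2 had 1366252. A read stands for 1 transcript molecule placed on a transcript model, so levels are given as reads per 1000000 reads of the library (CPM) without division by length, and a read is worth 0.752 CPM in replicate 1 and 0.732 CPM in replicate 2. Intervals are exact Clopper-Pearson 95% intervals and cover counting error only. The defining markers of hippocampal neurons and glia were present, with Snap25 at 2895 and 3838 reads in replicates 1 and 2, Prox1 of dentate granule cells at 29 and 26, and Wfs1 of CA1 at 103 and 144. The libraries stand apart in choroid plexus RNA: its 5 markers (Ttr, Enpp2, Kcnj13, Folr1 and Kcne2) reached a summed level of 13898 CPM in replicate 1, against 311 CPM in replicate 2, and the lowest of them, Kcne2, had 40 and 0 reads. By the test described below, the 3 neuronal markers were lower in replicate 1, and 3.38% of all genes were. So were 2 of 3 oligodendrocyte markers (4149 against 5489 CPM in sum), 1 of 3 dentate markers and 1 of 2 endothelial markers. Of 3 astrocyte markers 1 was higher and 1 lower, and no CA1, CA3 or microglial marker passed. Microglial markers summed to 359 and 452 CPM, astrocyte markers to 2737 and 2917 CPM, and Mog of oligodendrocytes had a mean of only 7.82 CPM.

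The mitochondrial ribosomal protein genes were expressed at moderate and fairly even levels. Together they took 8262 reads in replicate 1 and 8323 in replicate 2, which is 6211 and 6092 CPM and a mean of 6152 ± 84.5 CPM (SD, n = 2). Single genes lay between 14.5 and 243 CPM with a median of 74.5 CPM, and 69 of 78 were within 2-fold of that median. Across all 11891 genes with at least 10 reads over both libraries the median was 23.7 CPM. The SD of log2 mean CPM was 0.73 over the 78 genes and 1.86 over all genes tested. Per kilobase of model length the SD over the 78 genes was 1.13. The order of levels was shared by the libraries, with Spearman's rho of 0.93 and Pearson's r of 0.95 on the log2 scale, given as a description across genes of 2 libraries. Neighbours in that order could rarely be told apart: intervals were apart in both libraries for 1 of 77 neighbouring pairs.

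**Figure D1:**
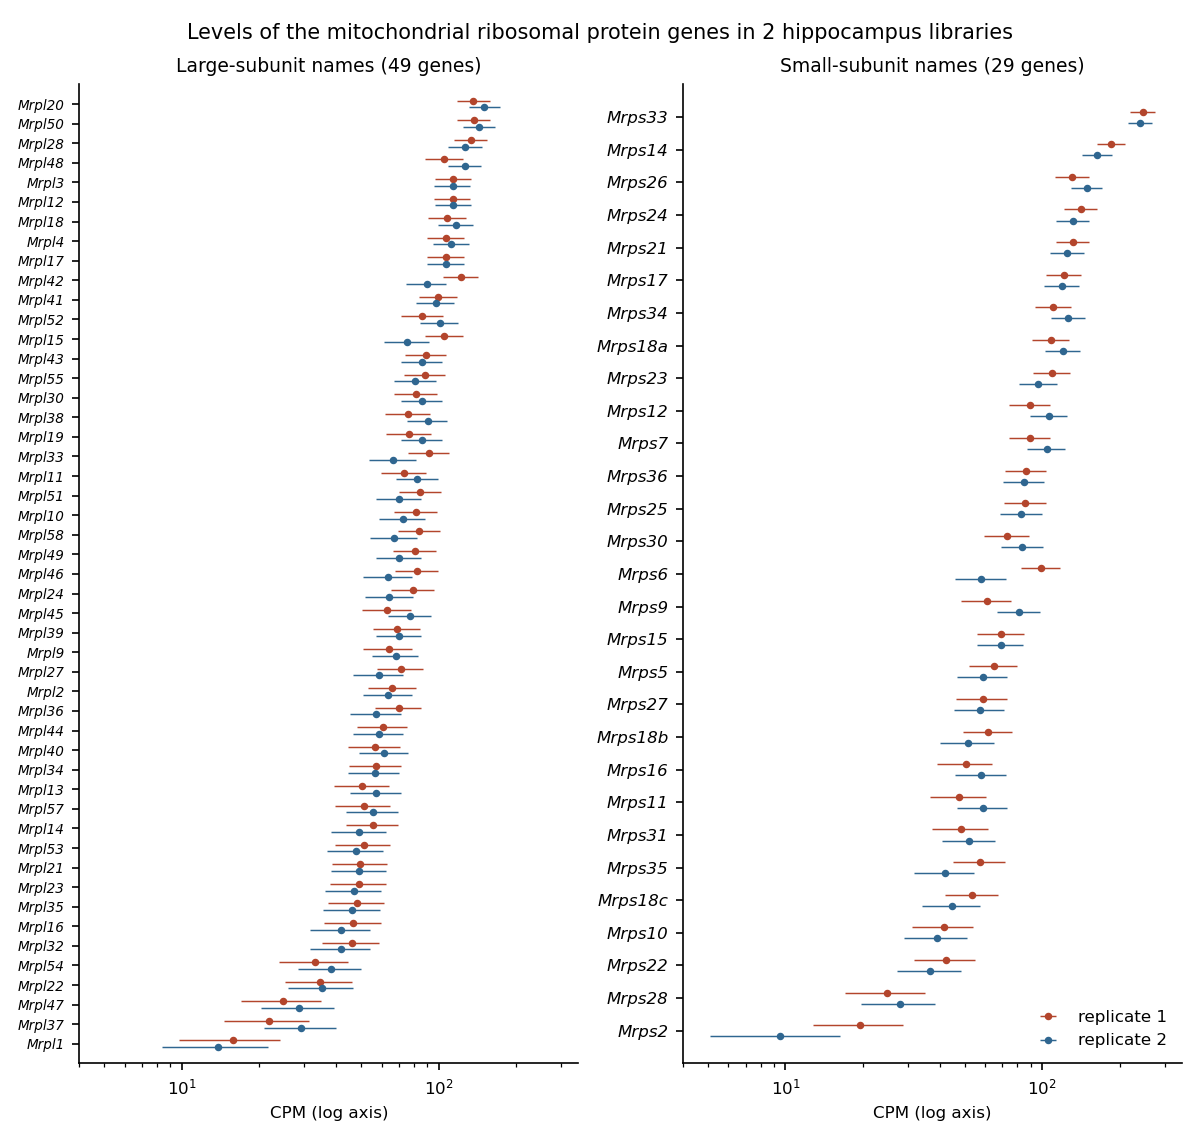
CPM of each of the 78 genes (horizontal log axis) in replicate 1 (red, upper point) and replicate 2 (blue, lower point), with exact 95% intervals for counting error; genes run from the highest to the lowest mean within each subunit. Mrps33 stands alone at the top of the small-subunit names at 246 and 240.1 CPM, and Mrps2 and Mrpl1 lie at the bottom.

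The gap at the top belonged to Mrps33 (chr6:39801804-39810988 of mm10, the build of all coordinates here, minus strand), a small-subunit protein without a bacterial counterpart. It had 327 reads in replicate 1 and 328 in replicate 2, or 246 CPM (interval 219.9 to 274) and 240.1 CPM (interval 215 to 268). The intervals of all 77 other genes lay below those of Mrps33 in both libraries. Second was Mrps14 (chr1:160195215-160202170, plus strand), the counterpart of a bacterial small-subunit protein, with 247 and 224 reads and a mean of 175 ± 15.4 CPM (SD, n = 2). Of the small-subunit names, Mrps26 (140.1 CPM), Mrps24 (137 CPM), Mrps21 (128 CPM), Mrps17 (120.2 CPM), Mrps34 (118 CPM), Mrps18a (114 CPM), Mrps23 (103 CPM) and Mrps12 (97.8 CPM) followed. Mrps12 is the protein of the decoding centre.

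Among the large-subunit names no gene stood apart. Mrpl20, a counterpart of a bacterial protein that binds the large rRNA, led with 182 and 206 reads (144 ± 9.9 CPM, SD, n = 2). Next came Mrpl50 with 183 and 197 reads (141 CPM) and Mrpl28 with 178 and 174 reads (131 CPM). Mrpl48 (116 CPM), Mrpl3 (114 CPM), Mrpl12 (114 CPM), Mrpl18 (113 CPM), Mrpl4 (109 CPM), Mrpl17 (107 CPM) and Mrpl42 (106 CPM) completed the highest 10. Mrpl12, which forms the flexible stalk that recruits translation factors, had 151 and 156 reads, and Mrpl10, the base of that stalk, 109 and 99 reads. Mrpl45, which lines the exit of the peptide tunnel at the inner membrane, had 84 and 106 reads. Mrpl44, a protein with an RNase III fold, had 81 and 80, and Mrpl58, which keeps peptidyl-tRNA hydrolase activity, had 112 and 92.

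At the low end, Mrps2 (chr2:28468066-28471178, plus strand) had 26 and 13 reads, or 19.5 and 9.5 CPM, and Mrpl1 (chr5:96209493-96266727, plus strand) had 21 and 19 reads, or 15.8 and 13.9 CPM. Both are counterparts of bacterial proteins of the same number. The other low large-subunit names were Mrpl37 (29 and 40 reads), Mrpl47 (33 and 39), Mrpl22 (46 and 48) and Mrpl54 (44 and 52), and the other low small-subunit names were Mrps28 (33 and 38), Mrps22 (56 and 50), Mrps10 (55 and 53) and Mrps18c (71 and 61). No gene was near the floor of 3 reads. Fewer cells that express a gene and fewer transcripts per cell cannot be told apart in bulk tissue.

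Subunit names do not always give the subunit. Mammals carry 3 relatives of 1 bacterial protein, and Mrps18a sits in the large subunit while Mrps18b and Mrps18c belong to the small one. Mrps18a had 144 and 164 reads (108 and 120.04 CPM), Mrps18b 82 and 70 reads (61.6 and 51.2 CPM) and Mrps18c 71 and 61 reads (53.4 and 44.6 CPM). The intervals of Mrps18a lay above those of the other 2 genes in both libraries, and those of Mrps18b and Mrps18c overlapped. Mrps30, also a large-subunit protein by position, had 97 and 114 reads, and Mrps36, which is now counted as a subunit of the 2-oxoglutarate dehydrogenase complex, had 115 and 116. By name, the large subunit summed to 3661 ± 63.02 CPM and the small subunit to 2491 ± 21.5 CPM (SD, n = 2), with medians of 73.2 and 78.2 CPM per gene. Placed by position and without Mrps36, the sums were 3853 CPM over 51 genes and 2213 CPM over 26 genes.

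The median level of the mitochondrial ribosomal protein genes was below that of complex I subunits and of cytosolic ribosomal proteins, and above that of the lists of genes that assist mitochondrial translation. Their median of 74.5 CPM compares with 271 CPM over 37 complex I subunits and 458 CPM over 81 cytosolic ribosomal protein genes, of which 78 had reads in both libraries. Both of these lists were taken by symbol and hold paralogues, and reads of cytosolic ribosomal protein genes may be shared with their many pseudogenes, so their levels are uncertain. The 5 ribosomal proteins that carry other names had a median of 70.2 CPM, with Aurkaip1 at 244 and 239 reads, Dap3, a GTP-binding protein of the small subunit, at 157 and 166, and Gadd45gip1 at 102 and 87. Medians were 36 CPM over 11 translation factors, 29.3 CPM over 20 assembly and rRNA factors, 27.2 CPM over 20 aminoacyl-tRNA synthetases and 27.4 CPM over 4 genes of mitochondrial transcription and membrane insertion. The synthetase list includes Gars, Kars and Qars, and whether Qars serves mitochondria was not tested.

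**Figure D2:**
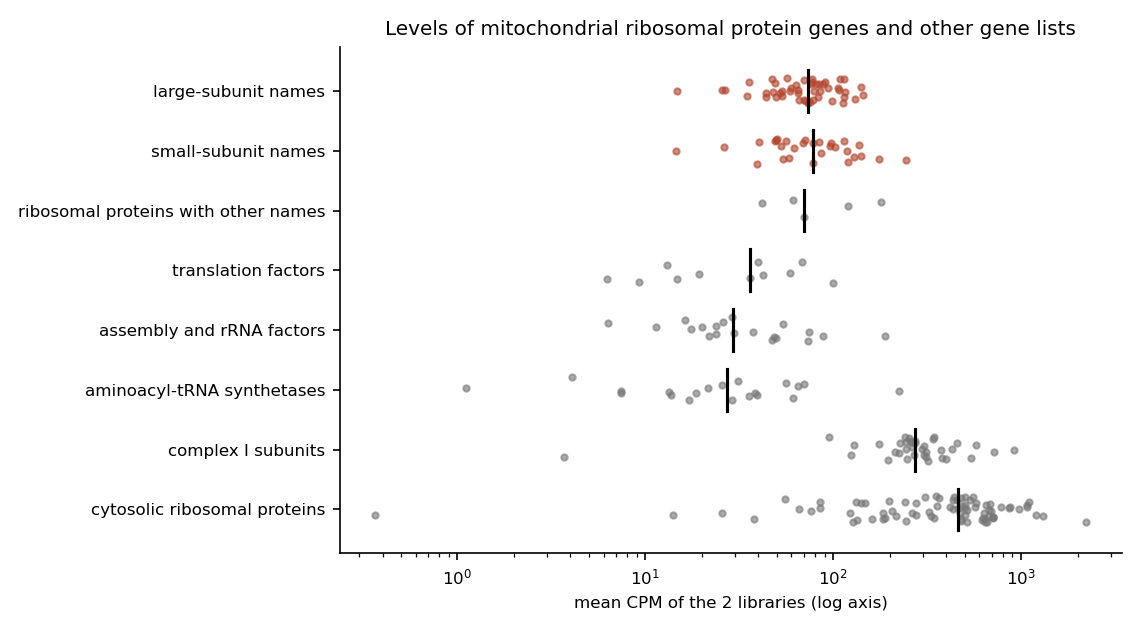
Mean CPM of the 2 libraries (horizontal log axis) for each gene with reads, as points, with the median of each list as a black line; the mitochondrial ribosomal proteins are in red. The medians of the red points lie at 73.2 and 78.2 CPM, left of those of complex I subunits and cytosolic ribosomal proteins and right of those of the factors and synthetases, while single genes overlap.

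Between the libraries, the genes differed little. Each gene's reads were tested against the rest of its library by Fisher's exact test (two-sided) and Benjamini-Hochberg adjustment over all 11891 genes tested, where 707 genes (5.95%) passed an adjusted p of 0.05, 2.56% as higher in replicate 1 and 3.38% as higher in replicate 2. Of the 78 genes, 1 passed, Mrps6. Of the 6959 tested genes within the range of mean CPM of the 78 genes, 5.79% passed. The median absolute log2 ratio was 0.166 for the 78 genes and 0.251 for the tested genes of that range. Levels inside the range were not matched, and counting error alone widens the ratios of genes with fewer reads. The median level was 74.5 CPM for the 78 genes, and the upper quartile of all tested genes was 61.9 CPM. The median log2 ratio of replicate 1 over replicate 2 was 0.03 for the 78 genes and -0.05 for all genes tested, 45 genes were higher in replicate 1 and 33 higher in replicate 2, and 58 had a log2 ratio within 0.25 of 0. The Fisher test takes counting error alone as the spread. With edgeR's exact test and a common dispersion estimated from the same 2 libraries, a biological coefficient of variation of 16.1%, 0 of the 78 genes and 49 of all genes (0.412%) passed, while 1 of the 78 and 433 of all had an unadjusted p under 0.05. Differences between the libraries thus enter the spread of edgeR's test, which is no independent check on the Fisher calls.

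Mrps6 (chr16:92058270-92112227, plus strand), the counterpart of a bacterial small-subunit protein, had 131 reads in replicate 1 and 79 in replicate 2, or 98.5 CPM (interval 82.3 to 117) and 57.8 CPM (interval 45.8 to 72.1). It was 1.7-fold higher in replicate 1, a log2 ratio of 0.77 (Fisher's exact test, adjusted p = 0.0055; edgeR's exact test, adjusted p = 1). Under the other library sizes, filters and classes of reads tried, Fisher's exact test gave an adjusted p of 0.0029 to 0.0096. The annotated transcript Mrps6-201 carried the difference with 127 and 74 reads. The gene overlaps Slc5a3, a sodium-coupled inositol transporter on the same strand, which had 15 reads in replicate 1 and 8 in replicate 2 (adjusted p = 0.52 by Fisher's exact test). It also overlaps the protein-coding Gm49711 on the same strand, with 10 and 4 reads (adjusted p = 0.46 by the same test). Unspliced antisense models inside the span of Slc5a3 held another 236 and 130 reads. The choroid plexus markers were higher in replicate 1 in the same libraries, 5 of 5 past the Fisher test and 13898 against 311 CPM in sum, and their part in the Mrps6 difference was not tested.

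No other gene passed the test. Mrps2 had the largest log2 ratio, 1.04 (Fisher's exact test, adjusted p = 0.26): 11 of its 26 reads in replicate 1 and 0 of its 13 in replicate 2 lay on an incomplete unspliced model, and the annotated Mrps2-201 had 14 and 13 reads. Mrpl15 had 140 and 103 reads (log2 ratio 0.48, adjusted p = 0.12 by the same test), Mrpl42 163 and 123, and Mrpl33 122 and 91. Lower in replicate 1 were Mrpl37 with 29 and 40 reads and Mrps9 with 81 and 111.

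**Figure D3:**
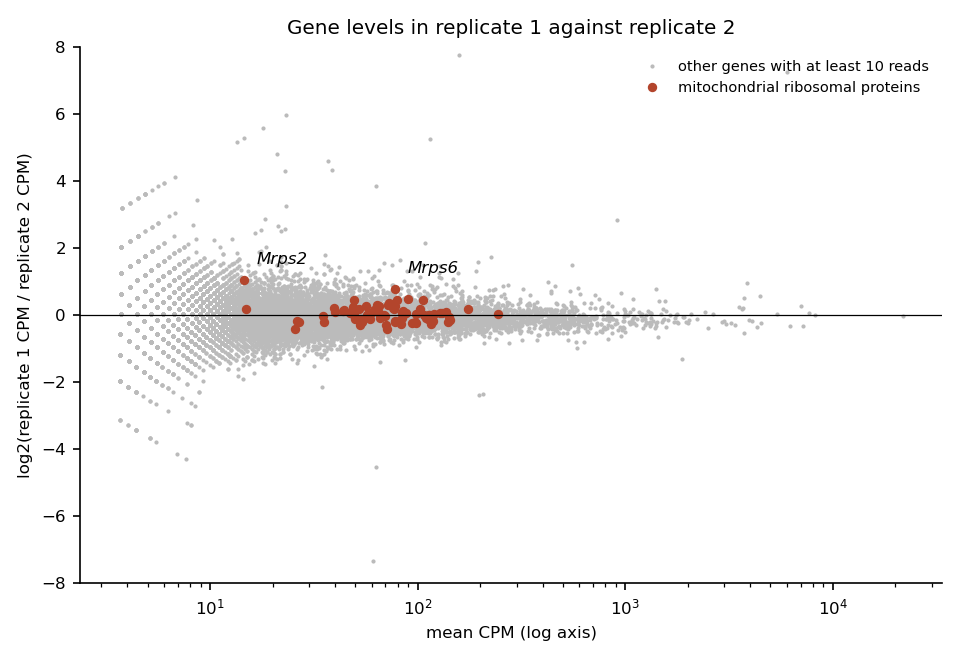
Log2 ratio of replicate 1 over replicate 2 (vertical axis) against mean CPM (horizontal log axis) for genes with at least 10 reads and a read in both libraries; grey points are other genes and red points the mitochondrial ribosomal proteins. The red points lie close to 0 apart from Mrps2 at 1.04, which rests on few reads, and Mrps6 at 0.77.

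Most reads of these genes followed an annotated transcript. Annotated transcripts held 86.6% of their reads in replicate 1 and 88.1% in replicate 2, against 70.4 ± 1.63% over all protein-coding genes (SD, n = 2). The share was higher still in complex I subunits, 89.4 ± 0.14%, and cytosolic ribosomal protein genes, 93.9 ± 0.28% (SD, n = 2). Incomplete models, which match only part of an annotated transcript, held 5.57% and 4.89%, models with unannotated splicing 6.57% and 5.97%, and genomic reads, with sequence from introns or fitting no exon structure, 1.21% and 1.06%. Over all protein-coding genes incomplete models held 15.2 ± 0.50% and genomic reads 7.85 ± 1.43% (SD, n = 2), while unannotated splicing held 6.57 ± 0.30%. Of the 78 genes' reads with unannotated splicing, 1 Mrpl33 model held 109 of 543 in replicate 1 and 86 of 497 in replicate 2. Annotated retained-intron transcripts took 2.69% and 2.26% of the reads of the 78 genes and 0.744 ± 0.016% over all protein-coding genes.

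**Figure D4:**
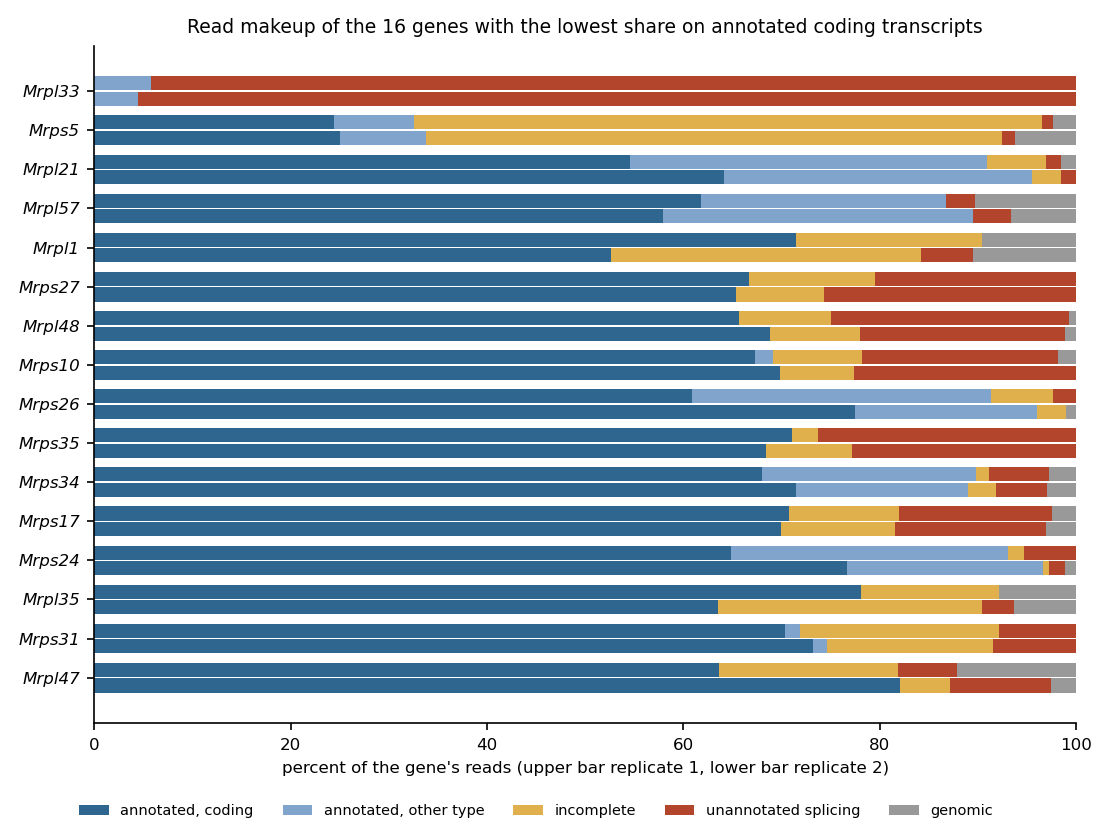
Percent of a gene's reads (horizontal axis) on annotated coding transcripts, annotated transcripts of another type, incomplete models, models with unannotated splicing and genomic reads, for the 16 genes with the lowest share on annotated coding transcripts; the upper bar is replicate 1 and the lower bar replicate 2. Mrpl33 is almost wholly unannotated splicing, Mrps5 mostly incomplete, and the pairs of bars resemble each other for most genes.

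Most genes had a single dominant model. Leaving out genomic reads, the leading model held a median of 85.2% of reads over the 76 genes that had 20 or more reads in both libraries, against 69.4% over 6091 protein-coding genes, 93.3% over 36 complex I subunits and 89.7% over 77 cytosolic ribosomal protein genes. It held more than 90% in 24 of 76 genes and less than 50% in 4. For 74 genes the leading model was an annotated coding transcript. The exceptions were Mrpl33, led by an unannotated splice form, and Mrps5, led by an incomplete model.

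Mrpl33 encodes a small protein of the large subunit. Its leading model, with 109 of 122 reads in replicate 1 and 86 of 91 in replicate 2, or 89.3% and 94.5%, joins a first exon that ends 8 bases later than annotated directly to exon 3. It lacks the annotated exon 2 of 19 bases (chr5:31614603-31614621, plus strand), all 19 of them coding. That exon is the shortest of 255 internal exons in the reference transcripts of these genes. A reference transcript is the annotated coding transcript with most reads, or the first by name where none had reads, as in Mrpl33. The net change of 11 bases is no multiple of 3 in a coding sequence of 195 bases. The annotated coding transcript Mrpl33-201 had no reads, and models with the short exon had 2 reads in replicate 1 and 0 in replicate 2. The sequences, from the GENCODE M21 transcripts, show the bases by which the leading model and the annotation differ. Capitals mark the short exon in the first line and the 8 added bases (up to chr5:31614030) in the third.
Mrpl33-201 exon 2: TTGCCAAGAGCAAGTCAAA
Mrpl33-201 end of exon 1: ccgctgtctctt
Leading model, end of exon 1: ccgctgtctcttGTAAGTCG
The added bases begin with the first letters of the annotated intron, and the following letters, where the intron of the leading model starts, are again GT. Laid without gaps along the short exon, the 8 added bases match it at 6 positions at best. The deposited models give exon coordinates and not read bases, so whether the reads held the 19 bases was not tested.

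**Figure D5:**
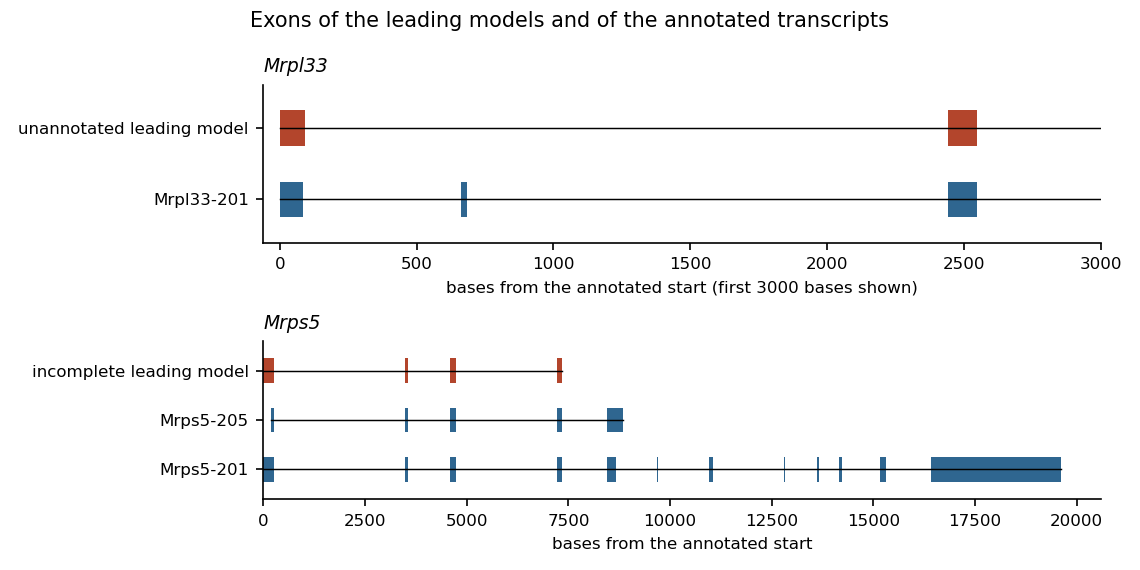
Exons (boxes) and introns (lines) in bases from the annotated start, with the leading models in red and annotated transcripts in blue; the upper map shows the first 3000 bases of Mrpl33 and the lower map all of Mrps5. The leading Mrpl33 model has no box at the annotated 19-base exon, and the leading Mrps5 model stops after 4 of 12 exons.

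Mrps5 (chr2:127587222-127606829, plus strand), a counterpart of the bacterial protein of the same number, was led by a model that stops at the end of exon 4 of 12. That model held 46 of 84 reads in replicate 1 and 37 of 75 in replicate 2, or 54.8% (interval 43.5 to 65.7%) and 49.3% (interval 37.6 to 61.1%). The full-length Mrps5-201 had 21 and 20 reads, and the retained-intron transcript Mrps5-205 had 7 and 7. Up to that exon end the model covers 409 of 1296 coding bases. The last 60 bases of exon 4 (chr2:127594510-127594569, plus strand) hold a run rich in A, shown because cDNA primed with oligo-dT can start at such runs. Capitals mark the 20-base window with the most A, which ends 38 bases before the exon end where the model stops.
Mrps5-201 end of exon 4: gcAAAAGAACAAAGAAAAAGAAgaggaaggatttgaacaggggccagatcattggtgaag
The window holds 16 A in 20 bases, the highest count among 332 exon ends of the reference transcripts of these genes, whose median was 8. Next by reads among models that stop early, the count of A at the exon end was 9 in Mrps31 (10 and 9 reads), 8 in Mrpl15 (6 and 5), 11 in Mrps25 (6 and 2), 8 in Mrpl48 (5 and 2) and 13 in Mrps22 (3 and 4). How the cDNA was primed is not given in the sources used here, and the part of the A-rich run in the Mrps5 model was not tested.

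A few genes spread their reads over several transcripts, and in most of those named here the transcripts share 1 coding sequence. Mrps17, the counterpart of a bacterial protein that binds the small rRNA, had the lowest leading share, 33.8% in replicate 1 and 32.9% in replicate 2. Its Mrps17-201 had 53 and 52 reads, Mrps17-205 34 and 24, and Mrps17-203 12 and 18, all with the same annotated coding sequence. Mrps12 was divided between Mrps12-201 (54 and 80 reads) and Mrps12-204 (58 and 55 reads), which keeps an intron of 210 bases before the same coding sequence. Mrpl30-201 (65 and 73) and Mrpl30-205 (25 and 26), and Mrpl24-202 (60 and 58) and Mrpl24-201 (30 and 12), likewise shared their coding sequences. Mrpl55 was led by Mrpl55-201 with 42 and 40 reads, 35.8% on average, ahead of Mrpl55-203 with 36 and 35.

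In 5 genes the leading coding sequence held less than 90% of annotated coding reads: Mrps10 (54.1 and 54.1%), Mrpl48 (56.5 and 59.7%), Mrpl55 (79.6 and 78.9%), Mrpl58 (77.7 and 84.6%) and Mrps36 (89.1 and 89.5%). In 53 of 77 genes with annotated coding reads a single coding sequence held all of them. Mrpl48-208 (52 and 71 reads) and Mrpl48-207 (33 and 45 reads) start at first exons far apart, and an unannotated model with another distant first exon had 19 and 19 reads. In Mrps10, Mrps36 and Mrpl55 the forms differ at the start of exon 3 by 3, 6 and 21 bases, all multiples of 3. The junctions are shown with the last 9 bases of exon 2 first, and capitals mark bases that only the longer form holds.
Mrps10-204 (20 and 20 reads): cctcgcgcttgccagtatgaa
Mrps10-203 (17 and 16 reads): cctcgcgctCAGtgccagtatgaa
Mrps36-203 (90 and 94 reads): aactcagtgCCTCAGaagctttggggt
Mrps36-202 (11 and 11 reads): aactcagtgaagctttggggt
Mrpl55-201 (42 and 40 reads): tctgcttagcctgctgaggca
Mrpl55-205 (10 and 13 reads): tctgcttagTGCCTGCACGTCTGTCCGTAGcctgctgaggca
All added stretches end in AG, the letters that close an intron. Exon 3 starts at chr17:47372576 in Mrps10-204 and at chr17:47372573 in Mrps10-203 (plus strand), and at chr11:59204556 in Mrpl55-201 and at chr11:59204535 in Mrpl55-205 (plus strand). On the minus strand of chromosome 13 it starts at 100739201 in Mrps36-203 and at 100739195 in Mrps36-202. The 2 forms of Mrps10 were close to equal in both libraries, whereas the longer form led in Mrps36 and the shorter in Mrpl55.

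Among the transcripts annotated with a retained intron, Mrps26-201 had the most reads, 53 and 38, and those of Mrps34, Mrps24, Mrpl21 and Mrpl57 came next. Mrps24, the counterpart of a bacterial protein at the mRNA entry, had 122 and 138 reads on its coding Mrps24-205, beside 30 and 21 on Mrps24-203 and 19 and 10 on Mrps24-201, both annotated with a retained intron. Mrps34-202 had 32 and 30 reads against 100 and 123 on Mrps34-201. Mrpl21-203 had 23 and 20 against 36 and 43 on Mrpl21-201, and Mrpl57-202 had 17 and 24 against 42 and 44 on Mrpl57-201. Mrps24 and Mrps34 overlap Urgcp (61 and 77 reads) and Nme3 (48 and 56 reads) on the same strand, so reads could be placed on either gene. In all, 28 of the 78 genes overlap another gene with reads, 25 of them one on the opposite strand.

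The share of the leading model differed between the libraries in 2 of 76 genes by Fisher's exact test with adjustment over 6262 genes, of which 200 (3.19%) passed. In Mrps26 (chr2:130563742-130568695, plus strand) the coding Mrps26-202 held 106 of 174 reads in replicate 1 and 158 of 202 in replicate 2, or 60.9% and 78.2% (Fisher's exact test, adjusted p = 0.0125). In Mrpl53 (chr6:83109040-83109939, plus strand) Mrpl53-201 held 55 of 68 and 62 of 62 reads, or 80.9% and all of them (adjusted p = 0.0074 by the same test), and an incomplete model without the first part of the gene had 9 and 0. Neither passed when incomplete reads were left out, where 13 of all genes did. The difference of replicate 1 minus replicate 2 was then -15.6 percentage points for Mrps26 (adjusted p = 0.23 by Fisher's exact test), against -17.3 with those reads. For Mrpl53 it was -5.17 points (adjusted p = 1 by the same test), against -19.1 with them. Gm42688, which overlaps Mrpl53 on the same strand, had 0 reads in replicate 1 and 19 in replicate 2 (adjusted p = 0.00021 by Fisher's exact test on gene counts).

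Unannotated splice forms were found again in both libraries for 26 genes. There were 32 such models with 2 or more reads on both sides, holding 297 reads in replicate 1 and 255 in replicate 2, out of 376 found in either library. Besides Mrpl33 and Mrpl48, those with the most reads were a model of Mrpl52 that keeps an intron of 79 bases (10 and 14 reads), a model of Mrpl27 without a coding exon of 132 bases (14 and 9), a model of Mrps17 with a first exon 131 bases longer (11 and 11) and a model of Mrps27, a pentatricopeptide repeat protein, with an extra exon of 123 bases (11 and 10). Donor sites 10 bases further on were used in Mrps35 (14 and 6 reads) and Mrpl28 (8 and 9). Coding exons of 170 bases in Mrpl10 (11 and 7 reads), 70 bases in Mrps10 (7 and 8) and 84 bases in Mrpl9 (3 and 5) were skipped. Of 7 models with a skipped exon, 2 skipped a multiple of 3. The 7 include a Mrps17 model whose skipped exon of 80 bases holds 0 coding bases. Mrps33 and Mrpl4 also ranked among the 10 genes with the most such reads, and each had recurrent models of few reads, the largest being 11 and 8 in Mrps33 and 5 and 9 in Mrpl4.

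Of 59 nuclear genes tested in the 5 lists of other ribosomal proteins and genes that assist mitochondrial translation, 0 passed Fisher's exact test, against 5.95% of all genes, and 0 passed edgeR's exact test. Many have few reads, and some with wide differences did not pass: Mars2 had 15 and 5 reads and Mrm1 12 and 32 (adjusted p = 0.21 and 0.06 by Fisher's exact test). Among the translation factors, Tufm, the elongation factor that brings aminoacyl-tRNA, had 129 and 141 reads, Gfm1, the translocase, 86 and 98, and Tsfm, which recycles Tufm, 72 and 88. The highest assembly factors were C1qbp (223 and 287 reads), Slirp (129 and 108), a partner of Lrpprc in stabilising mitochondrial mRNA, and Mpv17l2 (106 and 94). The leading synthetases were Gars (278 and 326), Kars (91 and 98), both of which also serve the cytosol, and Fars2 (84 and 91). Oxa1l, which inserts new proteins into the inner membrane, had 87 and 81 reads, Tfam 46 and 50, and Polrmt, the mitochondrial RNA polymerase, 8 and 25 (log2 ratio -1.61, adjusted p = 0.071 by Fisher's exact test).

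Mitochondrial transcripts themselves differed more. Of the 13 protein genes of the mitochondrial genome 8 passed Fisher's exact test as higher in replicate 1, against 2.56% of all genes, and 0 as lower. Their sum was 19490 CPM in replicate 1 and 14623 CPM in replicate 2, led by mt-Nd1 (7118 and 4920 reads), mt-Co1 (5826 and 4167) and mt-Atp6 (5102 and 4392), and the others that passed were mt-Nd2, mt-Nd3, mt-Nd4, mt-Nd5 and mt-Cytb. The rRNA mt-Rnr1 had 2209 and 1691 reads (log2 ratio 0.42, adjusted p = 1.7e-17 by Fisher's exact test), and mt-Rnr2 had 28699 and 29896 reads (adjusted p = 0.4 by the same test). In the same libraries choroid plexus markers were at 13898 CPM in replicate 1, against 311 CPM in replicate 2, and genomic reads took 8.87% and 6.84% of the reads of protein-coding genes. The part of either in these differences was not tested. None of these passed edgeR's exact test. Among the nuclear lists, 4 of 37 complex I subunits passed Fisher's exact test as higher in replicate 1 (Ndufa1, Ndufb6, Ndufc1 and Ndufs3), and 9 of 78 cytosolic ribosomal protein genes passed as lower, against 3.38% of all genes (Rpl3, Rpl11, Rpl13, Rpl13a, Rpl29, Rpl37, Rplp1, Rps2 and Rps15). The shares over all genes are not matched for depth. Median levels were 712 CPM for the mitochondrial protein genes and 458 CPM for the cytosolic ribosomal protein genes, against 23.7 CPM over all genes tested. Fisher's exact test passes smaller differences in genes with many reads, as in mt-Atp6 (log2 ratio 0.25, adjusted p = 1.8e-15). How well reads of the rRNAs reflect their level depends on how the RNA was selected, which is not given in the sources used here.

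Many of these genes start next to another gene on the opposite strand. A protein-coding gene with at least 10 reads started within 1000 bases, head to head, for 26 of 78 genes (33.3%), against 1442 of 11255 protein-coding genes with at least 10 reads (12.8%); this is a description of the annotation, with no test. The pair of Mrpl46 (110 and 87 reads) and Mrps11 (63 and 80 reads) lies within the family, with overlapping 5′ ends. Other partners belong to mitochondria: Sars2, the mitochondrial seryl-tRNA synthetase, opposite Mrps12, Twnk, the mitochondrial helicase, opposite Mrpl43, and the complex I genes Ndufs6 and Ndufb5 opposite Mrpl36 and Mrpl47. The 5′ ends also overlapped in further pairs, among them those of Twnk, Ndufs6 and Ndufb5, and were apart in the rest, as in that of Sars2. Levels within a pair could differ widely, as with Mrps12 at 119 and 145 reads beside Sars2 at 19 and 18.

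Promoter windows of RefSeq (GRCm38.p6, 250 bases before to 50 after the start) were found for 69 of the 78 genes, 75 windows in all. The ETS core CCGGAAG, read on both strands, was in 34.7% of these windows, against 8.86% of 32851 windows of all genes, 11.1% of those of complex I subunits and 33.8% of those of cytosolic ribosomal protein genes. The NRF1 motif, searched as GCGCA, any base and GCGC, was in 17.3%, against 4.6% of all windows, 22.2% for complex I and 6.76% for cytosolic ribosomal proteins. The YY1 motif AAGATGG was in 17.3%, against 6.34% of all windows, 19.4% for complex I and 16.2% for cytosolic ribosomal proteins. NRF1 and ETS factors such as GABP are known for control of nuclear genes of the respiratory chain. Windows of these genes were also richer in G and C, with a median of 58.7% against 52.7% of all windows, and such a match is not a bound site. Mrpl32 is shown because its window holds both NRF1 and YY1 letters and lies head to head with the proteasome gene Psma2 (350 and 361 reads). The line gives the 100 bases before its start (chr13:14613038-14613137, minus strand), with the match to the NRF1 motif in capitals.
Mrpl32 promoter: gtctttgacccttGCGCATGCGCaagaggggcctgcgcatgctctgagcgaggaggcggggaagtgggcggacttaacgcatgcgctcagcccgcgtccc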

How the data were processed

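The values deposited by the authors are counts of long reads for each transcript model, not normalized; models were made with TALON on mm10 and GENCODE M21, per the file headers and description files. No source used here states the aligner, platform, filters or strand setting. Gene counts were sums over a gene's models of every class, divided by all reads of the library for CPM. Genes with at least 10 reads were tested with Fisher's exact test (scipy 1.17.1), Benjamini-Hochberg adjustment at 0.05, which compares 2 libraries and not conditions; edgeR 4.0.16 and DESeq2 1.42.0 gave alternatives. Leading models needed 20 reads in each library. Unannotated models were matched by their introns. The tests were tested on simulated data. The 78 genes and all lists were chosen with earlier results of these data known. Named genes were the 10 highest and 5 lowest of each subunit name, those past a test, the 10 with the lowest leading share, the 10 with most unannotated spliced reads, those led by no coding transcript, the Mrps18 genes, and the top 3 of each list; other names were chosen after their values were seen. The list gene Mtres1 is 1700021F05Rik in GENCODE M21. Protein sequences were not used here. The depth limits a count of 0 to 2.26 and 2.2 CPM in replicates 1 and 2.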

Additional observations from a re-analysis of the deposited data

Results flagged for a closer look

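Reads outside the 78 genes lay above the floor of 3 reads in 2 places, with no control samples to set beside them. The processed pseudogene Mrpl23-ps1 on chromosome 2 had 18 reads in replicate 1 and 31 in replicate 2, a mean of 18.1 CPM, beside 65 and 64 reads on Mrpl23. Of the 25-base words of the transcript Mrpl23-201, 77.2% also occur in the pseudogene, so the placing of reads between them is uncertain. Antisense loci opposite the 78 genes held 267 reads in replicate 1 and 145 in replicate 2, of which 236 and 130 lay opposite Mrps6 inside the span of Slc5a3; without a stated strand setting such reads cannot be told apart from reads of the sense strand.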

How the results depend on the processing

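The sum of levels moved from its main value of 6152 CPM to 6450 CPM with reads on annotated genes as the total, 5760 CPM without genomic and incomplete reads and 5374 CPM with annotated transcripts only; with 1 library left out it ran between 6092 and 6211 CPM. The median of 74.5 CPM was 70.2 CPM without genomic and incomplete reads and ran between 69.5 and 74.8 CPM with 1 library left out. Placing Mrps18a and Mrps30 with the large subunit and leaving out Mrps36, an alternative chosen after seeing the data, gave 3853 and 2213 CPM. The SD of log2 levels was 0.73, between 0.72 and 0.76 with 1 library left out, and 1.13 per kilobase of model length. The share on annotated transcripts was 86.1% as a mean over genes, and 86.6 to 88.1% with 1 library left out. The median leading share was 90.1% without incomplete reads and 84.3 to 85.9% with 1 library left out.

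Mrps6 passed under each other library size, filter and class of reads tried, and not with edgeR's exact test, which called 0 of the 78 genes and 49 of all genes. Over all genes the calls, 305 higher in replicate 1 and 402 higher in replicate 2, became 343 and 316 with TMM library sizes, and 145 and 459 without genomic and incomplete reads. Without genomic and incomplete reads, 1 nuclear gene of the translation lists passed, Polrmt with 3 and 18 reads. Leading shares without incomplete reads gave 0 calls among these genes and 13 among all, while the Mrps26 difference was -15.6 points, against -17.3. Unannotated models in both libraries numbered 85 at 1 read and 13 at 5 reads. The causes were not tested. No paired analysis was possible because there is only 1 group. With counts of about 100 reads a gene, differences of the size of counting error were not detectable at this depth.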
